A study of Mus musculus with 6 samples.

Results

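The groups compared were 2C embryos that lacked the maternal supply of KDM1A and control 2C embryos. M-Z+ embryos came from superovulated females carrying LSD1/Kdm1a FL/FL and ZP3Cre+, mated to wild type CB6 males, and were flushed at embryonic day 1.5. Zp3-Cre is active in growing oocytes, so the egg carried no functional Kdm1a allele while the paternal allele was intact, and an embryo entered the group only if it had cleaved. Embryos of a litter were pooled, and the labels name 3 such samples. Control M+Z+ embryos, whose Kdm1a gene was not deleted, were 2C libraries that an earlier study had made. In every value below, the effect of genotype and that of the study the libraries came from cannot be told apart. Every gene row of the 2C comparison that had been marked as tested was a member, which gave 12385 of 47728 rows.

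KDM1A, also called LSD1, removes methyl groups from lysine 4 of histone H3 together with the CoREST proteins and histone deacetylases. A mouse egg is transcriptionally silent and loaded with RNA and protein that the oocyte made during its growth. After fertilization most of this RNA is broken down, and at the 2C stage the embryo's own genome is switched on in a large wave. Many genes of oocytes and of this wave lie in tandem clusters that are specific to rodents.

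Each value is the mean of a group in normalized read counts. Values per library were not used here, so a difference has no SD, no replicate check and no test, and sequencing depth is unknown here. Differences are log2 of M-Z+ over control after 1 was added to both means, which understates the change of low genes, and a row was counted as higher or lower when this reached 8-fold by size alone. Because the values are not divided by gene length, levels were compared within a gene and not between genes. Numbers in brackets after a pair of means are log2 differences. Of all tested rows 1206 (9.74%) were at least 8-fold higher in M-Z+ embryos and 2590 (20.9%) were at least 8-fold lower, and 3736 (30.2%) lay within 2-fold. The median difference was -0.33, with the lower quartile at -2.53 and the upper at 1.30. These shares and this median are the background for each gene family. Dividing each mean by its sum over tested rows adds up to 0.45 to each difference, and medians close to 0 turn sign under it.

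Kdm1a itself, on chromosome 4 of GRCm38, had a mean of 14.5 in M-Z+ and 1254 in control embryos (log2 difference -6.34). The deposited columns are named only by letters, and a legend of the study gives them in the opposite order to the one used here, which rests on a match with the oocyte comparisons. Every direction given depends on this order. Its paralog Kdm1b, which acts on the same histone residue in growing oocytes, had 739 in M-Z+ and 544 in control embryos. Both groups held RNA of genes that mark eggs and early embryos, among them Dppa3 with 27857 in M-Z+ and 18624 in control embryos. No marker of blood and none of the oviduct epithelium had been marked as tested. Blood markers summed to 14.5 in M-Z+ embryos and 63.0 in control embryos, and those of the oviduct to 206.4 in M-Z+ embryos and 198.8 in control embryos. Among the oviduct markers Ovgp1, its main secreted glycoprotein, had 1.01 in M-Z+ and 154 in control embryos, Krt7, a keratin of simple epithelia, had 95 in M-Z+ and 1.16 in control embryos, and Sec14l3 had 49.0 in M-Z+ and 2.72 in control embryos. The 17 rows of sperm markers summed to 71.8 in M-Z+ embryos and 139.7 in control embryos. Among them Prm2, Tnp1 and Tnp2 were listed at 0 in both groups, and Ldhc had 56.9 in M-Z+ and 121 in control embryos. Of 17 rows of cumulus and granulosa markers, 13 were under 10 in both groups, and Foxl2, Fshr, Amh and Lhcgr were listed at 0 in both. However, Cyp19a1, the aromatase of granulosa cells, had 1488 in M-Z+ and 5.55 in control embryos. Ptgs2 had 48.6 in M-Z+ and 0.377 in control embryos, and Star had 2.95 in M-Z+ and 82.6 in control embryos. The 14 rows of fibroblast and stroma markers summed to 973.2 in M-Z+ embryos and 221.2 in control embryos. Pecam1, which early embryos also express, made up 756.7 of the sum in M-Z+ embryos and 145.8 in control embryos. Postn had 100.5 in M-Z+ embryos and was listed at 0 in control embryos. Only Col1a1 and Vim of this list had the higher mean in control embryos. Fewer such cells and less RNA per cell cannot be told apart in pooled embryos, and the part of such cells in the results was not tested.

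**Figure D1:**
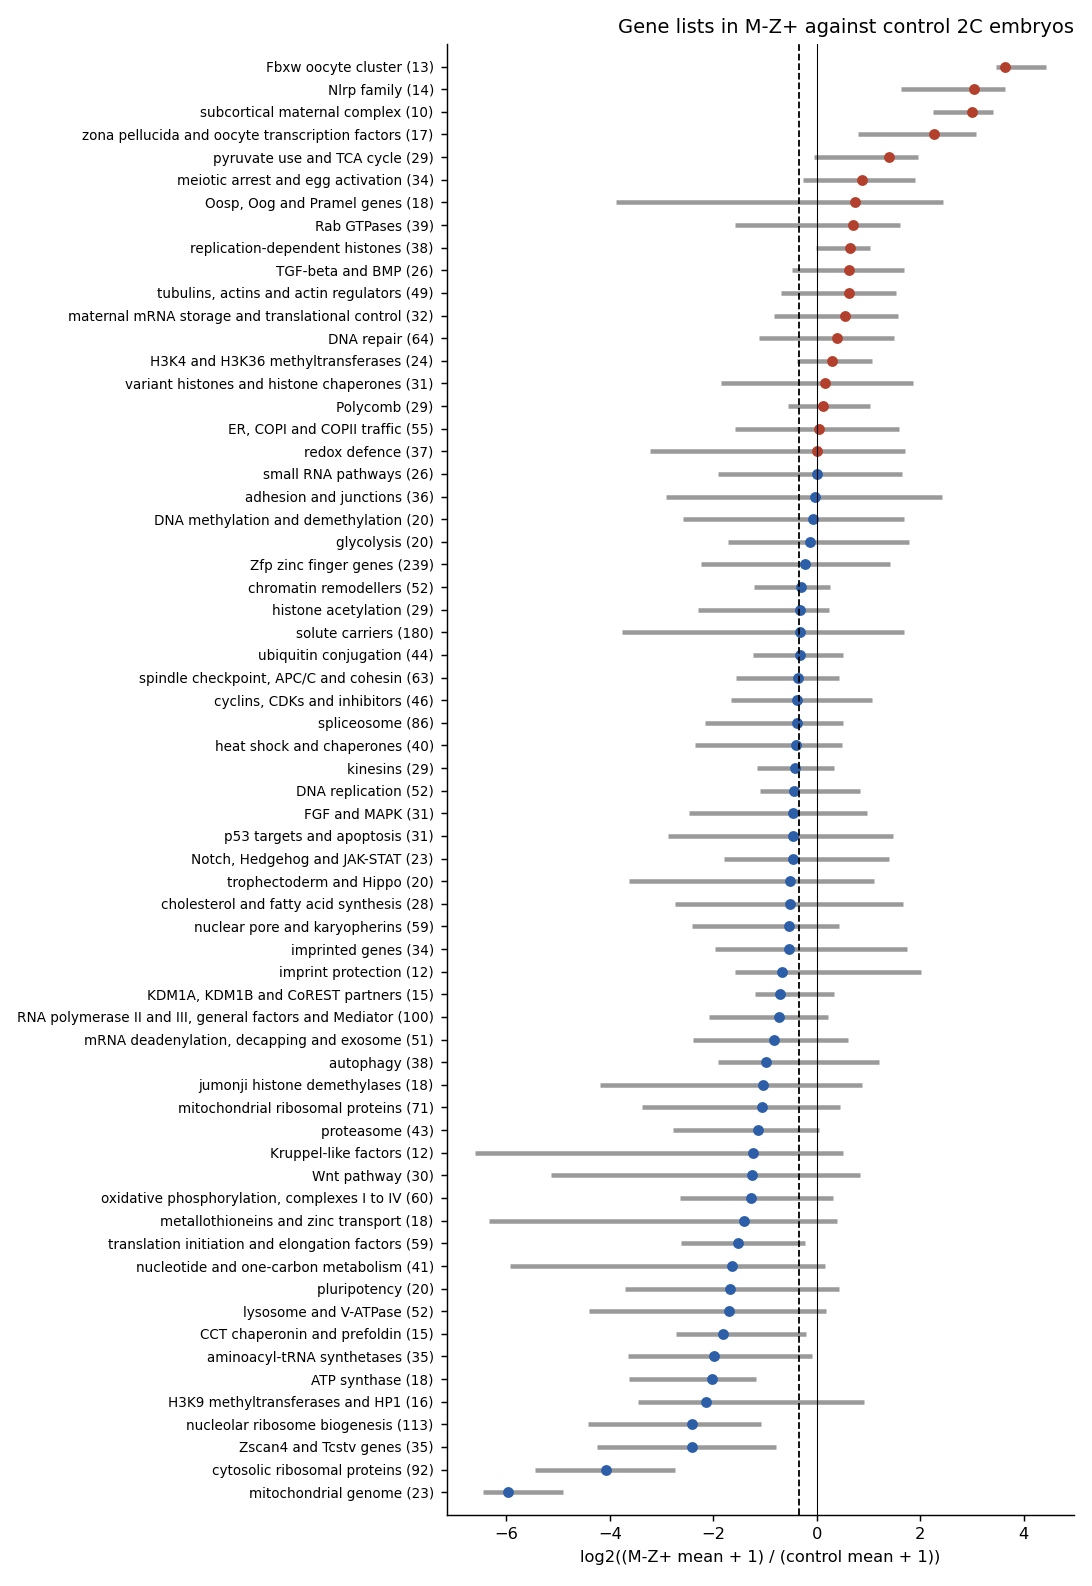
Differences of the gene lists with at least 10 tested rows. The x axis is the log2 difference, M-Z+ over control, points are list medians (red above 0, blue below), bars run from the lower to the upper quartile of the list's rows, numbers in brackets are tested rows, and the dashed line is the median of all tested rows (-0.33). Of all 73 lists with a tested row, 15 with medians near 0 turn sign when the differences are centred or the means divided by their sums. The Fbxw cluster is at the top with a median of 3.64 and the mitochondrial genome at the bottom with -5.97.

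Among lists with at least 10 tested rows, the Fbxw cluster and the Nlrp family of oocyte genes had the highest medians. In the Fbxw cluster of chromosome 9, a group of oocyte genes for F-box and WD-repeat proteins, 12 of 13 tested members were at least 8-fold higher and none was lower, with a median of 3.64. The tested members lie between positions 109139447 and 109746089 of that chromosome (GRCm38). Fbxw22 had 5539 in M-Z+ and 233 in control embryos (log2 difference 4.57). Fbxw24 had 11368 in M-Z+ and 884 in control embryos, a difference of 3.68. Only Fbxw19 stayed within 8-fold, at 1.77. The copies are close in sequence, and reads matching several of them were weighted down, so the level of a single copy is uncertain.

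The promoters of 3 Fbxw copies are shown because all 3 were higher by a like amount and their sequences match over long runs. Each line gives the 80 bases before the RefSeq start (GRCm38.p6), with the shared motif TTTAAAA in capitals. Fbxw14 is at chr9:109287677-109287756, Fbxw24 at chr9:109626060-109626139 and Fbxw26 at chr9:109746090-109746169, all on the minus strand.
Fbxw14: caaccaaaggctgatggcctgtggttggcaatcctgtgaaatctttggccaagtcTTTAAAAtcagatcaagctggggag
Fbxw24: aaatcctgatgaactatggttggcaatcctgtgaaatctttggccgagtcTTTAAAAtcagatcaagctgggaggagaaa
Fbxw26: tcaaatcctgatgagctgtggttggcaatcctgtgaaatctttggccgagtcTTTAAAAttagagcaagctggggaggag
Within 250 bases before the start, Fbxw14 and Fbxw24 share an unbroken run of 67 bases, Fbxw14 and Fbxw26 one of 58, and Fbxw24 and Fbxw26 one of 50. The motif stands in this 80-base window, read forward, in 0.76% of 7766 promoters. The differences of the 3 genes were 3.64, 3.68 and 3.96. All 11 Fbxw genes with a RefSeq promoter have fewer than 2 CG dinucleotides per 100 bases of it.

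The Nlrp genes code for NOD-like receptor proteins, many of which are made in oocytes and needed for early cleavage. Of 14 tested members 7 were at least 8-fold higher and 2 lower, with a median of 3.05. Nlrp4b had 4466 in M-Z+ and 113 in control embryos (5.30), and Nlrp14 had 24822 in M-Z+ and 1912 in control embryos (3.70). The members that were lower are known from immune cells. Nlrp3, the sensor of the inflammasome, had 22.3 in M-Z+ and 215 in control embryos (-3.21), and Nlrp12 had 0.00667 in M-Z+ and 85.5 in control embryos (-6.43). In the subcortical maternal complex, which gathers under the membrane of egg and embryo and is required for cleavage, 5 of 10 members were higher and none lower (median 2.99). Nlrp5, also named MATER and part of both lists, had 12429 in M-Z+ and 1122 in control embryos (3.47). Padi6, a member of the peptidylarginine deiminase family needed for the oocyte's cytoplasmic lattices, had 3243 in M-Z+ and 151 in control embryos (4.42). Ooep, a KH-domain protein of the complex, had 49311 in M-Z+ and 2391 in control embryos (4.37). Zbed3 stood at 455201 in M-Z+ and 62719 in control embryos, just inside 8-fold at 2.86.

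Other oocyte clusters were also higher. In the Tcl1 cluster on chromosome 12, 4 of 6 tested members were at least 8-fold higher (median 3.91), among them Tcl1, a coactivator of the kinase AKT, with 12957 in M-Z+ and 657 in control embryos (4.30). The family's X-linked member Mtcp1 had 1785 in M-Z+ and 95.5 in control embryos (4.21), which makes 5 of 7 for the family. Among Oas genes, a family of oligoadenylate synthetases with oocyte-expressed copies on chromosome 5, 5 of 6 tested members were higher. This family was picked out after its values were seen. Oas1c had 7118 in M-Z+ and 147 in control embryos (5.58) and Oas1d had 5435 in M-Z+ and 386 in control embryos (3.81), while Oas1f stayed within 8-fold.

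Coat proteins and oocyte transcription factors were mixed. In this list 5 of 17 members were at least 8-fold higher and 1 lower (median 2.26). Zp2, a coat protein that binds sperm, had 3606 in M-Z+ and 474 in control embryos (2.92), whereas Zp3, whose promoter drives the Cre transgene of the females, had 742 in M-Z+ and 1624 in control embryos (-1.13). Bmp15, a growth factor secreted by the oocyte, had 25015 in M-Z+ and 2958 in control embryos (3.08). Tbpl2, the oocyte's form of the TATA-binding protein, had 537 in M-Z+ and 19.4 in control embryos (4.72), and Taf4b had 787 in M-Z+ and 4664 in control embryos (-2.57). Gata4 was the member past 8-fold in the other direction, with 13.9 in M-Z+ and 3256 in control embryos (-7.77). Of 34 genes of meiotic arrest and egg activation, 4 were higher and 2 lower (median 0.87). Folr4, the gene of the sperm receptor JUNO on the egg surface, had 1178 in M-Z+ and 16.04 in control embryos (6.11). Fbxo43, or EMI2, which holds eggs in metaphase of the second meiotic division, had 4379 in M-Z+ and 340.0 in control embryos (3.68). Wee1, a kinase that restrains CDK1, had 20.8 in M-Z+ and 339.9 in control embryos (-3.97), and Cdc25c, a phosphatase that activates CDK1, had 223 in M-Z+ and 2018 in control embryos (-3.17).

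Regulators of maternal RNA did not move as a block. Of 32 genes of mRNA storage and translational control, 3 were at least 8-fold higher and 2 lower (median 0.55). The higher ones were Pabpc1l, the poly(A)-binding protein of eggs, with 1975 in M-Z+ and 53.9 in control embryos (5.17), Cpeb1, which governs cytoplasmic polyadenylation, with 2014 in M-Z+ and 157 in control embryos (3.67), and Rnf114, a ubiquitin ligase. Cpeb2, a relative of Cpeb1, had 22.9 in M-Z+ and 731 in control embryos (-4.94). Of 51 genes of deadenylation, decapping and the exosome, 2 were higher and 8 lower (median -0.83). Exosc4, an exosome subunit, had 0.203 in M-Z+ and 125 in control embryos (-6.71), and Zcchc11, which adds uridines to RNA ends, had 10.2 in M-Z+ and 493 in control embryos (-5.47). Cnot11, a subunit of the CCR4-NOT deadenylase, stood the other way with 570.4 in M-Z+ and 28.0 in control embryos (4.30).

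**Figure D2:**
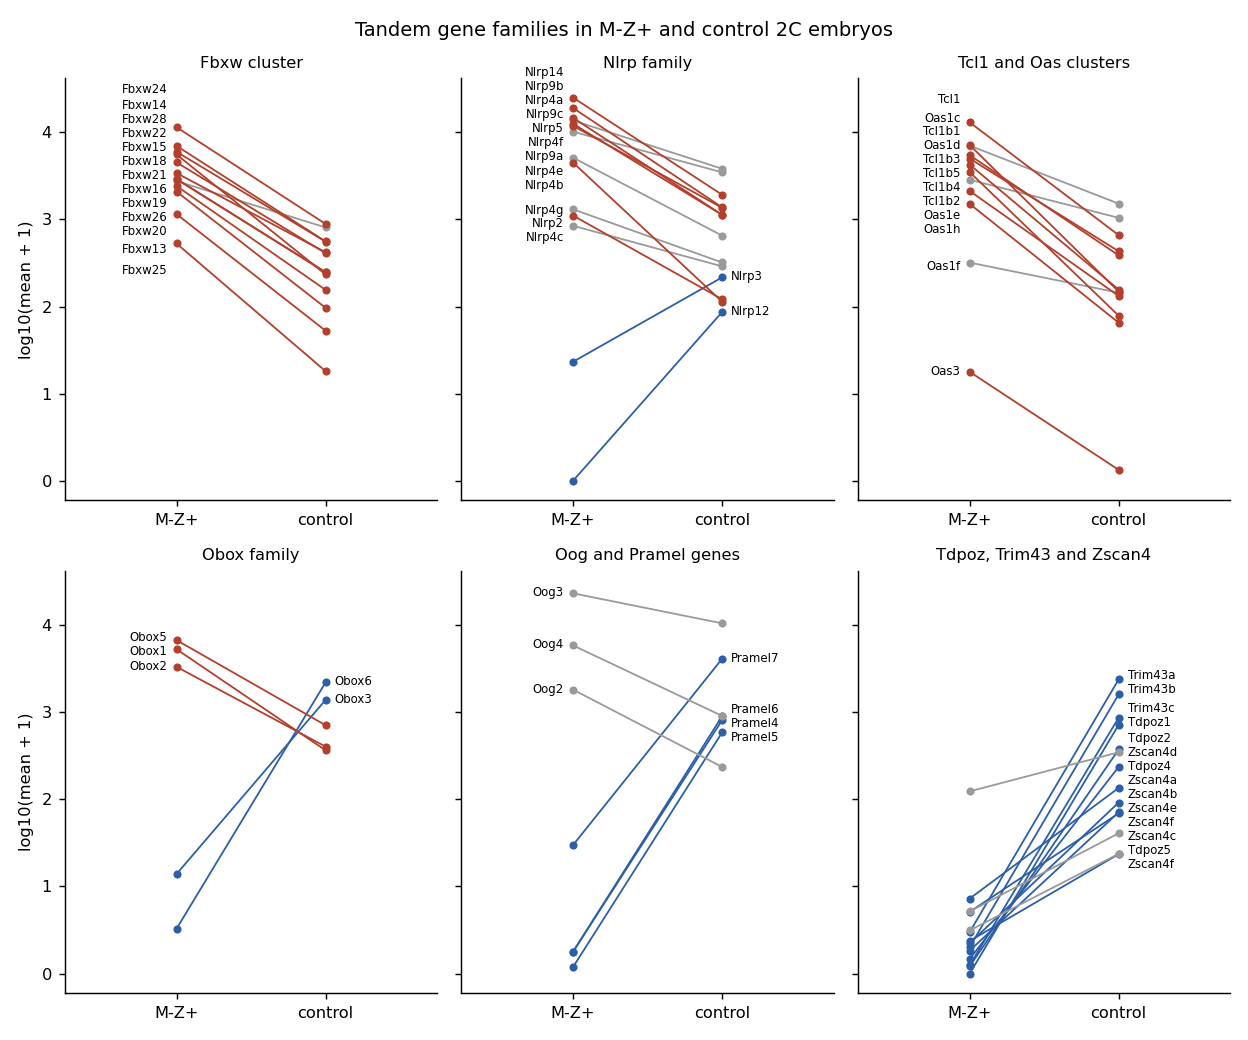
Group means of members of tandem gene families, as log10 of the mean plus 1 on the y axis, with M-Z+ on the left and control on the right of each panel. Red lines are rows at least 8-fold higher in M-Z+ embryos, blue lines rows at least 8-fold lower, grey lines rows within 8-fold, and labels are moved apart in the order of the levels. The Fbxw panel holds 12 red lines of 13, the Obox panel 3 red and 2 blue, and the last panel no red line.

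Several gene families that are first transcribed at the 2C stage held rows far lower in M-Z+ embryos, though not in all members. The Trim43 genes of chromosome 9, which code for tripartite-motif proteins, were among the largest differences of the table: Trim43a had 1.99 in M-Z+ and 2361 in control embryos (-9.62). Trim43b had 1.02 in M-Z+ and 1593 in control embryos (-9.63). The list of Tdpoz genes, for TRAF-domain and POZ-domain proteins expressed in the early embryo, had 3 of 6 rows at least 8-fold lower and none higher (median -5.12). The relatives Spop and Spopl in it, at 1.42 and 2.04, were above 0. Tdpoz2 had 0.217 in M-Z+ and 371 in control embryos (-8.26). In the list of Zscan4, Tcstv and further genes of the 2C programme, 15 of 35 rows were lower and 1 was higher (median -2.42), and the other 19 lay within 8-fold. Of 7 tested Zscan4 rows, SCAN and zinc finger genes of a cluster on chromosome 7, 5 were lower and none higher. Zscan4b, the lowest of them, had 1.23 in M-Z+ and 90.6 in control embryos. Zscan4d, the copy with the highest means, stayed within 8-fold with 122 in M-Z+ and 345 in control embryos (-1.49). Usp17lb, of a family of deubiquitinases, had 0.873 in M-Z+ and 339 in control embryos (-7.51). Ubtfl1, a relative of the ribosomal DNA factor UBTF that is needed before implantation, had 4.38 in M-Z+ and 2408 in control embryos (-8.81). The row that was higher was Tcstv1, with 629 in M-Z+ and 31.5 in control embryos (4.28). The copies of Zscan4, Tdpoz, Trim43 and Tcstv are near-identical, so reads may be split or weighted down among them. Of 5 tested rows for eIF1A-like genes, 1 was lower and none higher (median -1.91), a share near that of all rows.

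Obox genes, a rodent family of homeobox transcription factors on chromosome 7, divided within the family. Obox1 had 5247 in M-Z+ and 363 in control embryos (3.85). Obox5 had 6668 in M-Z+ and 705 in control embryos (3.24), and Obox2 had 3295 in M-Z+ and 399.9 in control embryos (3.04). These oocyte-expressed members were thus higher in M-Z+ embryos. Obox3, by contrast, had 12.9 in M-Z+ and 1376 in control embryos (-6.63), and Obox6 was also more than 8-fold lower. The promoters of Obox1, Obox5 and Obox3 are shown because they are alike although the genes stood in opposite directions. Each line gives the 80 bases before the RefSeq start (GRCm38.p6) with TATATAA in capitals. Obox1 is at chr7:15547177-15547256 and Obox5 at chr7:15750290-15750369 on the plus strand, and Obox3 at chr7:15639778-15639857 on the minus strand.
Obox1: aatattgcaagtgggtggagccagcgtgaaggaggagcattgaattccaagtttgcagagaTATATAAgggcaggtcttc
Obox5: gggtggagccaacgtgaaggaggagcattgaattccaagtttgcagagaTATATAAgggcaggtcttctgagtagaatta
Obox3: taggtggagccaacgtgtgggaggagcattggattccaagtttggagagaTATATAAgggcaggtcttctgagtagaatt
In the 250 bases before the start, Obox1 and Obox5 share an unbroken run of 82 bases, Obox5 and Obox3 one of 35, and Obox1 and Obox3 one of 25. TATATAA is found in the same forward 80-base window of 0.631% of all 7766 promoters. The motif was therefore present in genes that were higher and in one that was lower.

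The Oog and Pramel genes, which code for leucine-rich repeat proteins of the PRAME type, also held differences of both signs. Of the 5 tested rows on chromosome 4, 2 were at least 8-fold lower, and the Oog rows were above 0 but within 8-fold. Of 18 tested Oosp, Oog and Pramel rows 2 were at least 8-fold higher and 6 lower (median 0.75). Oog2 had 1804 in M-Z+ and 234 in control embryos (2.94), and Oog3 had 22929 in M-Z+ and 10381 in control embryos (1.14). Pramel4, in the same stretch of chromosome 4, had 0.783 in M-Z+ and 806 in control embryos (-8.82), and Pramel5 had 0.193 in M-Z+ and 582 in control embryos (-8.93). Pramel6 and Pramel7, a pair on chromosome 2, stood at -8.97 and -7.09. Oosp1, an oocyte-secreted protein, had 16453 in M-Z+ and 1494 in control embryos (3.46). The promoters of 2 Oog and 2 Pramel genes are shown, 80 bases before the RefSeq start (GRCm38.p6) with ATATAA in capitals, because genes of 1 stretch that stood in opposite directions have unlike promoters, while each pair is alike within itself. Oog2 is at chr4:144190637-144190716 and Pramel4 at chr4:144059045-144059124 on the plus strand, and Oog3 at chr4:144162652-144162731 and Pramel5 at chr4:144280467-144280546 on the minus strand.
Oog2: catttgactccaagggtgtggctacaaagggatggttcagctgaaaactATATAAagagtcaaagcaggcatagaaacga
Oog3: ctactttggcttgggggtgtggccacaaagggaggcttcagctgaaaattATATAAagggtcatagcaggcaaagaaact
Pramel4: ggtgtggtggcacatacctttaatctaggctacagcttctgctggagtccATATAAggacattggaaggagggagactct
Pramel5: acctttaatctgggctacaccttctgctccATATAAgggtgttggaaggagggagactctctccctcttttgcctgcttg
Pramel4 and Pramel5 share an unbroken run of 111 bases within 250 bases, Oog2 and Oog3 one of 16, and no Oog gene shares more than 8 bases in a row with a Pramel gene. ATATAA stands in the forward 80-base window of 1.18% of all promoters. Each of the genes shown holds it, whichever its direction. Whether the promoters play a part in the directions was not tested.

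RNA of most tested rows on the Y chromosome and of Xist was low in M-Z+ embryos. The Y chromosome is inherited from the father. Of 6 tested rows placed on it, 4 were at least 8-fold lower, a set looked at after its values were seen. Usp9y, a deubiquitinase, had 2.32 in M-Z+ and 173 in control embryos (-5.71). Eif2s3y, a translation initiation factor subunit, had 0.640 in M-Z+ and 79.3 in control embryos (-5.61), and Uty, a histone demethylase relative, had 4.31 in M-Z+ and 118 in control embryos (-4.49). Erdr1 stayed within 8-fold with 43.2 in M-Z+ and 258 in control embryos (-2.55). Gm20775 was the row of the Y chromosome with the higher mean in M-Z+ embryos, at 91.3 in M-Z+ and 33.3 in control embryos (1.43). Xist, the RNA that coats the inactive X and comes from the paternal X at this stage, had 3.97 in M-Z+ and 869 in control embryos (-7.45). Of 461 rows on the X chromosome 10.6% were higher and 19.1% lower, near the shares of all rows. The mix of sexes in the pools was not given.

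Over all rows 31.8% of those past 8-fold were higher and the others lower, and the lists of the first lineages are read against this split. Of 20 pluripotency genes 8 were at least 8-fold lower and 2 higher (median -1.68). Among the higher ones Eras had 1160 in M-Z+ and 2.13 in control embryos (8.53) and was among the highest rows of the table. Nr5a2, an orphan nuclear receptor, had 205 in M-Z+ and 3740.3 in control embryos (-4.18). Zfp42, or REX1, had 2.09 in M-Z+ and 218 in control embryos (-6.15). Fgf4, the growth factor of the inner cell mass, had 0.980 in M-Z+ and 189.7 in control embryos (-6.59). Dppa4 had 29.9 in M-Z+ and 1504 in control embryos (-5.61). Pou5f1, coding for OCT4 and also stored by the oocyte, had 1509 in M-Z+ and 375 in control embryos (2.01), while Sox2 had 5.90 in M-Z+ and 5.72 in control embryos. The Kruppel-like zinc finger factors counted 5 lower and none higher of 12 (median -1.23). Klf9 had 0.597 in M-Z+ and 868 in control embryos (-9.09), whereas Klf17, abundant in eggs, had 7813 in M-Z+ and 5615 in control embryos (0.48). Of 20 genes of trophectoderm and the Hippo pathway 6 were lower, or 30%, against 20.9% of all rows. In this list 2 were higher, or 10%, near the share of all rows (median -0.51). Hand1, a factor of trophoblast giant cells, had 0.440 in M-Z+ and 1179 in control embryos (-9.68), and Wwtr1, the Hippo effector TAZ, had 38.6 in M-Z+ and 542 in control embryos (-3.78). The kinase Lats2, which restrains such effectors, stood the other way with 53.3 in M-Z+ and 4.96 in control embryos (3.19). Of 8 tested primitive endoderm genes 2 were higher and 1 lower.

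**Figure D3:**
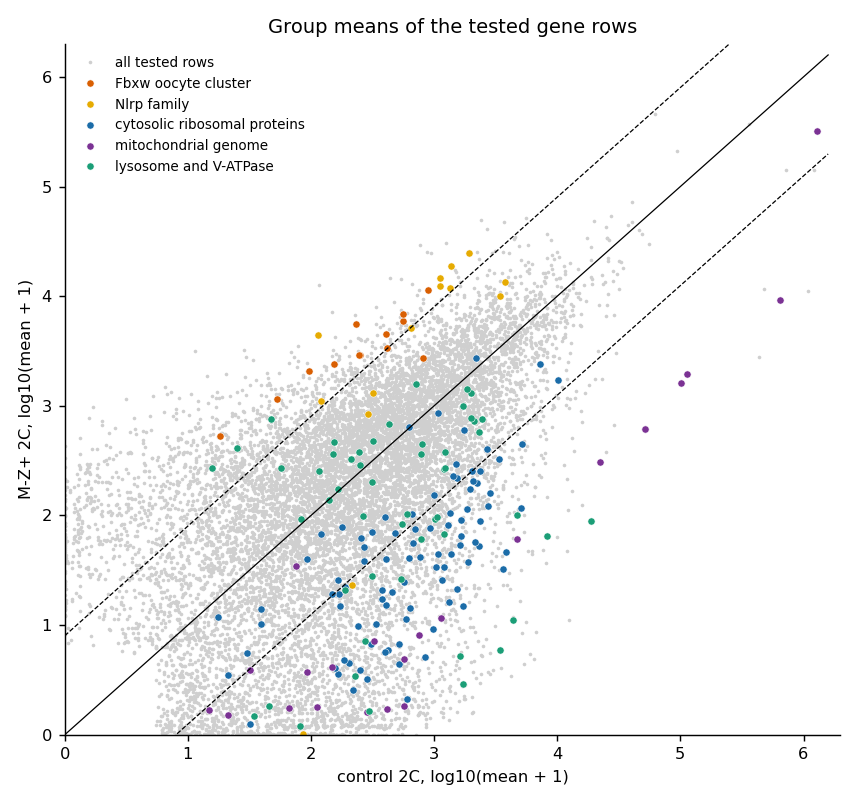
Group means of all 12385 tested rows, as log10 of the mean plus 1, with control embryos on the x axis and M-Z+ embryos on the y axis. The solid line marks equal means and the dashed lines mark 8-fold. Points of the Fbxw cluster lie above the diagonal, 12 of 13 past the 8-fold line, and ribosomal proteins below it, 63 of 92 past that line.

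Ribosomal proteins were lower almost throughout. Of 92 rows for cytosolic ribosomal proteins 63 were at least 8-fold lower and none was higher, with a median of -4.08, and only 2 had a difference above 0. Rps27, of the small subunit, had 8.18 in M-Z+ and 976 in control embryos (-6.73). The exceptions were Rps27l, a p53-inducible relative of Rps27, with 2733 in M-Z+ and 2189 in control embryos (0.32) and Rps2 with 638 in M-Z+ and 625 in control embryos (0.03). Ribosomal protein genes have many processed copies, and reads that matched a copy were weighted down. In the assembly factors of the nucleolus, 44 of 113 were lower and 1 higher (median -2.41). Wdr74, an assembly factor of the large subunit, had 3.67 in M-Z+ and 2095 in control embryos (-8.81). Utp23, of the small subunit processome, had 2.08 in M-Z+ and 1036 in control embryos (-8.39). Riok1, an atypical kinase of late small subunit assembly, was the exception with 7796 in M-Z+ and 768 in control embryos (3.34).

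Initiation and elongation factors counted 12 lower and 1 higher of 59 (median -1.52), so that the share lower, 20.3%, was near that of all rows. Eif3f, a subunit of the initiation factor that binds the small subunit, had 14.9 in M-Z+ and 1459 in control embryos (-6.52), and Pabpc1, the somatic poly(A)-binding protein, had 99.4 in M-Z+ and 5349 in control embryos (-5.74), opposite to its egg relative Pabpc1l. Eef2k, the kinase that slows elongation, had 5586 in M-Z+ and 677 in control embryos (3.04). Of 35 aminoacyl-tRNA synthetases and partners, which load amino acids on tRNA, 12 were lower and none higher (median -1.98). Yars, for tyrosine, had 7.03 in M-Z+ and 432 in control embryos (-5.75). Ribosomal proteins of mitochondria had 21 of 71 lower and 1 higher (median -1.07). Mrpl43 had 0.503 in M-Z+ and 385 in control embryos (-8.00), and the member that was higher, Mrpl48, had 2863 in M-Z+ and 146 in control embryos (4.28).

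Transcription, splicing and nuclear transport were closer to the background. RNA polymerase II and III, their general factors and Mediator had 15 of 100 lower and 3 higher (median -0.73). Polr3e and Polr3g, both subunits of RNA polymerase III, had 2.23 in M-Z+ and 1559 in control embryos (-8.92) and 34.3 in M-Z+ and 2469 in control embryos (-6.13). Snapc2, of the complex that starts small nuclear RNA genes, had 2.59 in M-Z+ and 2840.1 in control embryos (-9.63). Gtf2b, the initiation factor TFIIB, was higher with 7947 in M-Z+ and 336 in control embryos (4.56). Spliceosome genes had 11 of 86 lower and 1 higher, Magohb of the exon junction complex being the higher one with 252 in M-Z+ and 5.27 in control embryos (5.34). Of 59 genes of the nuclear pore and of karyopherins, the carriers through it, 12 were lower and none higher, including the importin Ipo7 with 148 in M-Z+ and 4309 in control embryos (-4.85).

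Of 52 genes of the lysosome and its proton pump 20 were at least 8-fold lower and 3 higher (median -1.69). Ctsl, a lysosomal cysteine protease, had 87.2 in M-Z+ and 18825 in control embryos (-7.74). Gla, the alpha-galactosidase, had 4.91 in M-Z+ and 3412 in control embryos (-9.17). Galc, the galactosylceramidase, stood the other way with 269 in M-Z+ and 14.9 in control embryos (4.09). The proteasome had 10 of 43 lower, a share of 23.3% that is near that of all rows, and 1 higher (median -1.14). Psmb5, a catalytic subunit, had 0.887 in M-Z+ and 486 in control embryos (-8.01), and Psmd10, an assembly chaperone of its regulatory particle, had 524 in M-Z+ and 5.72 in control embryos (6.29). Autophagy genes had 8 of 38 lower, or 21.1%, near the share of all rows, and 1 higher. Gabarapl2, a ubiquitin-like protein of autophagosomes, had 20.7 in M-Z+ and 2822 in control embryos (-7.02), and the related Map1lc3b had 182 in M-Z+ and 6546 in control embryos (-5.16). Genes of the endoplasmic reticulum and of COPI and COPII vesicles had 6 of 55 lower and 4 higher.

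RNA read from the mitochondrial genome was lower by a wide margin. Of 23 rows of the list 21 were at least 8-fold lower and none higher (median -5.97), and rows on that chromosome made up 4.97% of the summed means in M-Z+ embryos and 34.8% in control embryos. Cytb, of respiratory complex III, had 9161 in M-Z+ and 643584 in control embryos (-6.13). mt-Co3, of complex IV, had 1627 in M-Z+ and 101881 in control embryos (-5.97), and mt-Nd5, of complex I, had 309 in M-Z+ and 22244 in control embryos (-6.16). Many rows of this list are tRNA genes with low means in M-Z+ embryos, such as mt-Tq with 0.833 in M-Z+ and 564 in control embryos (-8.27). The small ribosomal RNA mt-Rnr1 and the tRNA gene mt-Tp were the exceptions within 8-fold, with differences of -2.01 and -1.15. Genes on this genome lie end to end and overlap at some ends, so neighbouring rows may share reads.

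Of nuclear genes of respiration, those for complexes I to IV had 14 of 60 rows lower, or 23.3%, near the share of all rows, and 1 higher (median -1.27), with Ndufc1 of complex I at 0.893 in M-Z+ and 518 in control embryos (-8.10). All 18 rows of ATP synthase were below 0 in difference and 7 were at least 8-fold lower (median -2.02). Atp5j, a peripheral stalk subunit, had 5.34 in M-Z+ and 1856 in control embryos (-8.19), whereas Atp5b, the catalytic subunit, had 10694 in M-Z+ and 14988 in control embryos (-0.49). Pyruvate use and the TCA cycle, on which the early embryo depends for energy, had a median above 0 (1.40), with 2 of 29 higher and 4 lower. Ldhb, a lactate dehydrogenase subunit, had 14527 in M-Z+ and 1129 in control embryos (3.68). Malate dehydrogenases were opposed, the cytosolic Mdh1 with 1058 in M-Z+ and 24.8 in control embryos (5.36) and the mitochondrial Mdh2 with 71.9 in M-Z+ and 1793 in control embryos (-4.62). Glycolysis genes had 3 of 20 lower and 2 higher.

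Enzymes that build nucleotides and serve folate metabolism had 17 of 41 rows lower and 1 higher (median -1.64). Gldc, of the glycine cleavage system, had 5.48 in M-Z+ and 2511 in control embryos (-8.60). Ppat, the committing enzyme of purine synthesis, had 20.1 in M-Z+ and 4139 in control embryos (-7.61). Cad, which starts pyrimidine synthesis, had 12.5 in M-Z+ and 1472 in control embryos (-6.77), and Aprt, which salvages adenine, had 1.43 in M-Z+ and 805 in control embryos (-8.37). Pdxk, which makes the vitamin B6 cofactor, was one of the lowest rows of all with 3.04 in M-Z+ and 3479 in control embryos (-9.75). Metallothioneins and zinc transporters had 8 of 18 lower and 2 higher (median -1.40). The zinc importer Slc39a4 had 0.907 in M-Z+ and 855 in control embryos (-8.81), and the exporter Slc30a1 had 15.9 in M-Z+ and 1422 in control embryos (-6.39). The metallothioneins differed among themselves. Mt1 stayed within 8-fold with 2031 in M-Z+ and 7614 in control embryos (-1.91), Mt2 was among the lowest rows of the table with 10.1 in M-Z+ and 12468 in control embryos (-10.13), and Mt4 had 106 in M-Z+ and 0.187 in control embryos (6.49). Synthesis of cholesterol and fatty acids had 6 of 28 lower, or 21.4%, and 3 higher, both near the shares of all rows. The elongase Elovl6 had 8.02 in M-Z+ and 1726 in control embryos (-7.58), and Hsd17b7 of cholesterol synthesis had 609 in M-Z+ and 10.6 in control embryos (5.72). Redox defence had 11 of 37 lower and 5 higher, the peroxiredoxin Prdx4 having 1.52 in M-Z+ and 1152 in control embryos (-8.84) and the thioredoxin inhibitor Txnip 1919 in M-Z+ and 119.6 in control embryos (3.99).

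**Figure D4:**
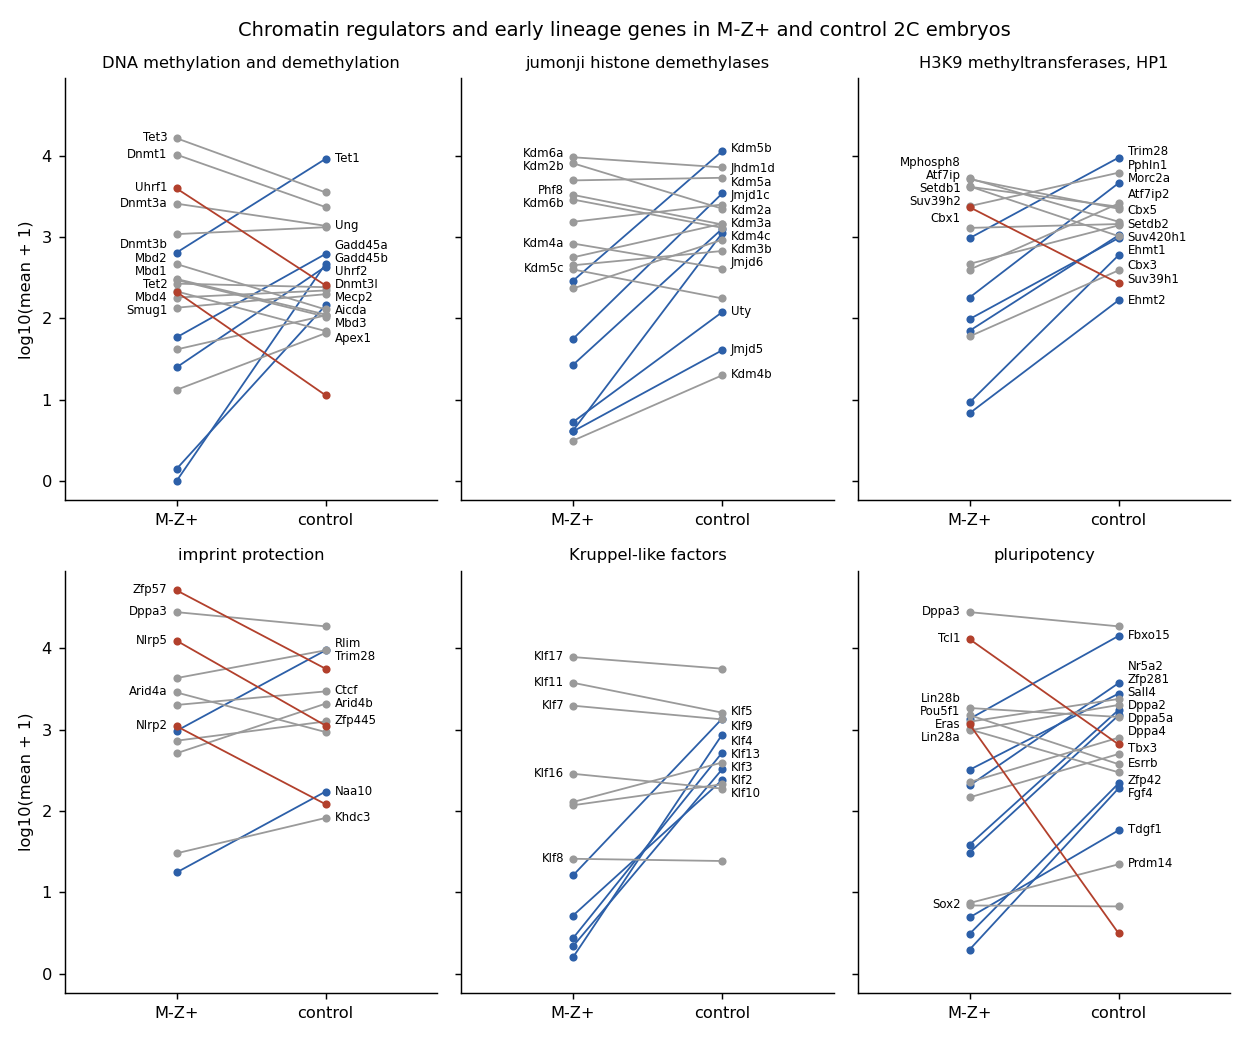
Group means of chromatin regulators and early lineage genes, as log10 of the mean plus 1 on the y axis, with M-Z+ on the left and control on the right of each panel. Red lines are rows at least 8-fold higher in M-Z+ embryos, blue lines rows at least 8-fold lower, grey lines rows within 8-fold, and labels are moved apart in the order of the levels. Tet1 (-3.83) and Uhrf1 (3.96) cross in the first panel, and the jumonji panel has 6 blue lines and no red line.

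The partners of KDM1A were mostly within 8-fold. Of 15 rows, Kdm1a among them, 2 were lower. Besides Kdm1a this was Hdac1, a deacetylase of the CoREST complex, with 26.4 in M-Z+ and 1121 in control embryos (-5.36). The paralog Hdac2 had 3265 in M-Z+ and 895 in control embryos (1.87). The corepressor Ctbp2 was higher with 1425 in M-Z+ and 109.5 in control embryos (3.69). The jumonji enzymes, which form the other class of histone demethylases, had 6 of 18 rows lower and none higher (median -1.04). Kdm5b, which acts on methylated lysine 4 of histone H3 as KDM1A does, had 289 in M-Z+ and 11326 in control embryos (-5.29). Kdm5a, its relative, had 54.9 in M-Z+ and 3424 in control embryos (-5.94). Kdm4c, an enzyme for lysine 9, had 3.17 in M-Z+ and 1111 in control embryos (-8.06), and Kdm3a, for the same residue, had 25.8 in M-Z+ and 1259 in control embryos (-5.55).

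Writers and readers of repressive marks on lysine 9 had 6 of 16 rows lower and 1 higher (median -2.13). The methyltransferase pair Ehmt1 and Ehmt2, also called GLP and G9a, had 96.9 in M-Z+ and 971 in control embryos (-3.31) and 5.82 in M-Z+ and 166 in control embryos (-4.61). Trim28, or KAP1, the corepressor that recruits SETDB1, had 966 in M-Z+ and 9446 in control embryos (-3.29), while Setdb1 itself had 4193 in M-Z+ and 1023 in control embryos (2.03). Among the HP1 proteins, which bind this mark, Cbx3 had 8.25 in M-Z+ and 597 in control embryos (-6.01) and Cbx1 had 2324 in M-Z+ and 268 in control embryos (3.11). Methyltransferases for lysines 4 and 36 had 1 of 24 rows lower, Setd2 with 1758 in M-Z+ and 23262 in control embryos (-3.73), and none higher. Polycomb genes had 3 of 29 lower and none higher, Pcgf5 having 10.2 in M-Z+ and 1136 in control embryos (-6.67) and Ezh2, the methyltransferase for lysine 27, 9405 in M-Z+ and 3129.6 in control embryos (1.59). In both of these last lists the median lay above 0, at 0.30 and 0.13.

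Enzymes of DNA methylation stood on both sides. Of 20 rows 5 were lower, or 25%, and 2 higher, or 10%, both near the shares of all rows. Uhrf1, which guides the maintenance methyltransferase to replicated DNA, had 3951 in M-Z+ and 253 in control embryos (3.96), and Dnmt1, that methyltransferase, had 10279 in M-Z+ and 2329.6 in control embryos (2.14). Uhrf2, the paralog, had 23.9 in M-Z+ and 432 in control embryos (-4.12). Tet1, an oxidase of methylated cytosine, had 641 in M-Z+ and 9131 in control embryos (-3.83), opposite to Tet3, the form stored in eggs, with 16362 in M-Z+ and 3529 in control embryos (2.21). Gadd45b, of DNA damage response, was listed at 0 in M-Z+ embryos with 466 in control embryos. Genes that protect imprints had 3 of 12 higher and 2 lower (median -0.67). Of these Zfp57, a zinc finger protein that binds methylated imprints, had 51667 in M-Z+ and 5613 in control embryos (3.20), and Dppa3, also called STELLA, differed by 0.58. On the lower side stood Trim28, given above, and the acetyltransferase subunit Naa10, with 16.6 in M-Z+ and 173 in control embryos (-3.30). Imprinted genes had 7 of 34 lower, or 20.6%, near the share of all rows, and 5 higher (median -0.54). Igf2r, the receptor that clears IGF2, had 37.3 in M-Z+ and 2897 in control embryos (-6.24). Kcnq1ot1, a paternally expressed RNA, had 52.7 in M-Z+ and 1414 in control embryos (-4.72), and Gpr1 had 2617 in M-Z+ and 32.8 in control embryos (6.27).

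Histone acetylation genes had 6 of 29 rows lower, a share near that of all rows, and 1 higher. The acetyltransferase Ep300 had 1557 in M-Z+ and 18065 in control embryos (-3.54), and the deacetylase Sirt1 had 813 in M-Z+ and 6717 in control embryos (-3.04). Chromatin remodellers had 5 of 52 lower and 2 higher. Replication-dependent histones, whose mature RNA lacks a poly(A) tail, had a median of 0.64 with 1 of 38 higher and 1 lower. Variant histones and chaperones had 4 of 31 lower and none higher. Zinc finger genes named Zfp, the largest list, had 28 of 239 higher and 46 lower, close to the background shares. Small RNA pathway genes had 4 of 26 higher and 3 lower. There the PIWI proteins, which bind small RNAs against transposons, were opposed, Piwil2 with 11.6 in M-Z+ and 1181 in control embryos (-6.55) and Piwil1 with 241 in M-Z+ and 12.7 in control embryos (4.14). The tudor protein Tdrd1 had 8531 in M-Z+ and 1029.9 in control embryos (3.05).

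The lists of cyclins, DNA replication, spindle checkpoint and kinesins had medians between -0.44 and -0.37, near that of all rows, and they turn sign under centring or sum scaling. Cyclins, CDKs and inhibitors had 9 of 46 rows lower, a share near that of all rows, and 1 higher. Ccne1, cyclin E1, had 20.6 in M-Z+ and 2113 in control embryos (-6.61), and Cdk4 had 12.9 in M-Z+ and 474 in control embryos (-5.10). DNA replication genes had 2 of 52 higher and 3 lower, the helicase subunit Mcm4 having 2988 in M-Z+ and 158 in control embryos (4.23). DNA repair genes had 5 of 64 higher and 9 lower (median 0.39). The glycosylase Neil3 had 6480.3 in M-Z+ and 528 in control embryos (3.61), and the checkpoint kinase Chek2 had 11.1 in M-Z+ and 1088 in control embryos (-6.50). In the list of p53 targets and apoptosis, 8 of 31 were lower, or 25.8%, and 4 higher, or 12.9%. Over all rows the shares were 20.9% and 9.74%. Mcl1, a survival protein, had 227 in M-Z+ and 2889.7 in control embryos (-3.66), and Casp8, the initiator caspase of death receptors, had 1553 in M-Z+ and 45.8 in control embryos (5.05). Bcl2l10, an oocyte member of the BCL2 family, had 30617 in M-Z+ and 1259 in control embryos (4.60). Genes of the spindle checkpoint, APC/C and cohesin had 6 of 63 lower and none higher, and kinesins 2 of 29 lower and 2 higher.

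In the Wnt pathway 12 of 30 rows were lower and none higher (median -1.24). The ligand Wnt10b had 0.297 in M-Z+ and 178 in control embryos (-7.11). The Frizzled receptors Fzd5 and Fzd7 had 0.173 in M-Z+ and 126 in control embryos (-6.76) and 1.35 in M-Z+ and 211 in control embryos (-6.49). Lef1, the transcription factor at the end of the pathway, had 1.11 in M-Z+ and 239 in control embryos (-6.83), and Myc, which the pathway and many others induce, had 1.99 in M-Z+ and 667 in control embryos (-7.80). FGF and MAPK genes had 7 of 31 lower, or 22.6%, near the share of all rows, and none higher. Among the lower ones were the receptor Fgfr4 with 0.163 in M-Z+ and 232 in control embryos (-7.65) and the inhibitor Spry2 with 0.843 in M-Z+ and 556 in control embryos (-8.24). TGF-beta and BMP genes had 2 of 26 higher and 2 lower (median 0.62), and Smad7, an inhibitor of this pathway, had 2.21 in M-Z+ and 1209.7 in control embryos (-8.56). In the list of Notch, Hedgehog and JAK-STAT, 5 of 23 were lower, or 21.7%, near the share of all rows, and 1 higher. The factor Stat3 had 3381 in M-Z+ and 332 in control embryos (3.34), and Socs3, the inhibitor that STAT3 induces, had 35.0 in M-Z+ and 773 in control embryos (-4.43).

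Adhesion and transport genes spread widely in both directions. Of 36 adhesion and junction genes 8 were higher and 9 lower. Cdh2, N-cadherin, had 1178 in M-Z+ and 7.55 in control embryos (7.11), and Cldn15, a claudin, had 486 in M-Z+ and 3.32 in control embryos (6.82). Cldn6, a claudin of early epithelia, had 1.80 in M-Z+ and 1341 in control embryos (-8.90), and Ocln, occludin of tight junctions, had 1.37 in M-Z+ and 353 in control embryos (-7.22). Solute carriers had 24 of 180 higher and 52 lower, including Slc34a2, a phosphate carrier, with 7.60 in M-Z+ and 6673 in control embryos (-9.60). Rab GTPases of vesicle traffic had 7 of 39 lower, or 17.9%, near the share of all rows, and 2 higher, or 5.13% (median 0.69). Rab20 had 0.180 in M-Z+ and 861 in control embryos (-9.51), and Rab3b had 2070.3 in M-Z+ and 91.4 in control embryos (4.49). At the upper end of the whole table stood Bank1, a B-cell scaffold protein, with 671 in M-Z+ and 1.02 in control embryos (8.37), and Tspan1, a tetraspanin, with 564 in M-Z+ and 1.27 in control embryos (7.96). At the lower end stood Spic, an ETS factor, with 1.13 in M-Z+ and 1732 in control embryos (-9.67).

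Gene symbols were also grouped by the letters before their first digit, without a list, which gave 327 families of at least 5 tested rows. In 11 of them at least 50% of rows were 8-fold higher and in 21 at least 50% were 8-fold lower, and the families named here were picked after their values were seen. Families on the higher side had their highest medians in Ano, of anoctamins, with 3 of 5 higher and 1 lower (median 4.41), and Olfr, of olfactory receptors, with 4 of 6 (median 4.23). Slco and Cdh had 3 of 6 each. Also on this side were Rgs, regulators of G protein signalling, with 5 of 8, among them Rgs2 with 8679 in M-Z+ and 814 in control embryos (3.41), and Xlr, an X-linked family, with 3 of 5. The tudor domain family Tdrd had 3 of 6. On the lower side were Fzd with 4 of 5, Nop of nucleolar proteins with 4 of 6, Tomm of the outer mitochondrial translocase with 5 of 8 and Ipo of importins with 4 of 7. Protein arginine methyltransferases counted 4 of 7 lower, Prmt1 with 5.47 in M-Z+ and 529 in control embryos (-6.36) and Prmt6 with 5.46 in M-Z+ and 1107 in control embryos (-7.42), while Prmt2 was higher with 805 in M-Z+ and 97.4 in control embryos (3.03).

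Genes that were higher in M-Z+ embryos had promoters with fewer CG dinucleotides than other genes, a feature that played no part in choosing them. A RefSeq promoter of 250 bases before and 50 after the start was at hand for 7766 genes, 82.3% of nuclear protein-coding rows outside chromosome 18 and 80.9% of those at least 8-fold higher. Higher genes had a median of 4.67 CG dinucleotides per 100 bases, against 7 in all genes. Of 744 genes with fewer than 2 per 100 bases 24.6% were at least 8-fold higher, of 2084 genes with 2 to 6 it was 13%, and of 4938 genes with 6 or more it was 6.24%. Without the oocyte and 2C gene clusters the shares were 23.4%, 12.9% and 6.22%. Genes with few CG dinucleotides also had lower means, with medians of 148.2 and 115.8 in M-Z+ and control embryos, against 308.7 and 442.5 with 6 or more. Whether level plays a part in the shares was not tested. The same check is void for the lower genes, since 79.7% of them had a promoter, under the 80% required.

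**Figure D5:**
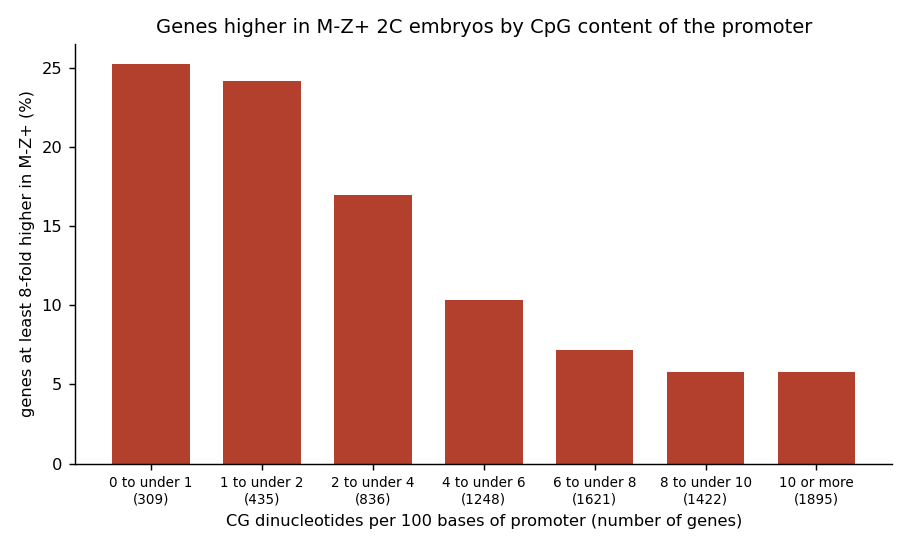
Share of genes at least 8-fold higher in M-Z+ embryos (y axis, percent) by CG dinucleotides per 100 bases of promoter (x axis, with the number of genes in brackets). The bars run from 25.2% with fewer than 1 to 5.80% with 10 or more.

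Short motifs were counted on both strands over the whole of these promoters, 250 bases before to 50 after the start. The ETS-type motif CCGGAAG stood in 10.1% of promoters of higher genes and 19.7% of all promoters. The NRF1-type motif GCGCATGC stood in 2.76% of promoters of higher genes and 6.09% of all, and the SP-type motif GGGCGG in 51.4% of promoters of higher genes and 64.4% of all. These motifs hold CG dinucleotides. Motifs without CG dinucleotides ran the other way or were alike. Again giving higher genes before all genes, the shares were for CAGGTG 23.8% and 17.4%, for TATAAA 10.2% and 6.77%, for TAATTA 4.59% and 2.68%, and for CCAAT 37.5% and 39.97%. A match is a description of letters and not of a bound site.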

How the data were processed

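The 3 M-Z+ samples and the control libraries were lysed directly, and cDNA was amplified with the Ovation RNA-seq V2 kit and sequenced on an Illumina instrument. The authors trimmed first reads to 50 bp, aligned them with BBMap to mm10 genes and repeats, divided each read's weight by the square of its number of gene loci, median normalized in R and averaged each group, and the deposited score is this mean of normalized counts. Every mean was a whole multiple of 1/300 (tolerance 0.02 of a step). Rows with few raw counts were not tested by the authors, yet 130 untested rows have a mean of at least 200. The submitters' processing notes name Cufflinks and DESeq, with versions not given in the sources used here. The deposited columns of the authors' fold changes, p-values and calls were not used. No column of per-library values was left unused.

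The columns of means are named only by letters, and a legend of the study gives their order opposite to the one used here. The column taken as M-Z+ ranked rows like the 2C column of the mutant 2C against oocyte table (Spearman rho 0.999986) and unlike that of the control 2C against oocyte table (0.568), and the column taken as control did the reverse (0.568 and 0.999989). In these tables the other column ranked rows alike (0.99999).

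Log2 differences (pseudocount 1) and counts at 8-fold were computed in Python 3.11.15 with pandas 2.3.3, numpy 2.4.6 and scipy 1.17.1, after a test on simulated data. Of the tested rows, 62 are listed at 0 in control embryos and 139 in M-Z+ embryos, and they enter the counts through the pseudocount. The 75 gene lists and the members were chosen with earlier results of these data known. Named genes were Kdm1a, the 12 rows at each end of the ranking with a mean of at least 200, 6 genes shown in the paper, any member of a list of at most 30 rows, and in longer lists the 6 members farthest in the main direction and 3 in the other with a mean of at least 100. Members of symbol families and of the Y chromosome were added after their values were seen. Lists count rows, and some genes stand on 2 rows under older and newer symbols. Positions are from GENCODE M21 and promoters from RefSeq. Alternatives were other folds, pseudocounts, minimum means, scalings and sets of rows. Some members are not reported here.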

Additional observations from a re-analysis of the deposited data

How the results depend on the processing

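Counts were printed for 8-fold. At 4-fold 2085 rows were higher and at 16-fold 693, against 1206 at 8-fold. With all rows above 0, tested or not, 2313 rows were higher and 4063 lower (median -0.14). The median of tested rows (-0.33) became -0.22 when rows under 50 in both groups were left out, 0 when centred and 0.11 when each mean was divided by its sum, which is how these settings were built. The counts of higher and lower rows otherwise stayed within 1.5 times, and the difference of Kdm1a lay between -5.69 and -6.43 under every pseudocount and scaling. Of 939 named genes 64 crossed the 8-fold limit when means were divided by their sums. None past 8-fold turned sign, but none could, so this says nothing about how firm the directions are. A pseudocount added to both means cannot change which is larger, and the scalings shift differences by far less than 8-fold. Of 73 lists with a tested row 15 turned the sign of their median under centring or sum scaling, those of the spliceosome, heat shock, ubiquitin conjugation, glycolysis, DNA methylation, chromatin remodellers, histone acetylation, small RNAs, Zfp genes, cyclins, DNA replication, spindle checkpoint, kinesins, adhesion and solute carriers.

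No paired analysis was possible because the tables used hold group means. For the same reason leaving out replicates was not run. Depth is unknown, so the precision of low means cannot be given.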
